A study of Mus musculus with 28 samples.

Results

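The scavenger and surface receptors described here are 10 genes that mark macrophages or carry out their uptake and sensing, out of 18193 genes that the array table reads with a probe set naming 1 gene. The genes are Msr1, Cd36, Marco, Mrc1, Cd68, Cd14, Fcgr1, Itgam, Adgre1 and Csf1r. They were found by gene symbol in the platform's probe annotation, which gave 19 probe sets, none of them (0) listing a second gene. Msr1 has 4 probe sets, Cd36 and Csf1r have 3 each, Fcgr1 and Marco have 2 each, and the other 5 genes have 1 each.

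The arrays, 28 in number, read total RNA from macrophages grown out of mouse bone marrow, in 7 groups of 4 that the series calls biological replicates. The donor mice were C57BL/6 J, aged 12 weeks. In the compound experiment the groups were Nrf2-/- cells with RA839, Nrf2-/- cells with DMSO, Nrf2+/+ cells with RA839 and Nrf2+/+ cells with DMSO. Cells were kept with compound or vehicle for 4 h at a DMSO content of 0.2% by volume, and the sources used here do not give the dose of RA839. In the siRNA experiment all 3 groups were Nrf2+/+ cells, given siKeap1-1, siKeap1-2 or siControl. Nrf2-/- cells are called KO and Nrf2+/+ cells WT below. The labels give the genotype alone, without the construction of the allele or the number of mice behind an array, and neither do they give the time after transfection.

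Nrf2, encoded by Nfe2l2, is a transcription factor that switches on detoxifying and antioxidant genes, and Keap1 is the adaptor protein that marks Nrf2 for degradation. RA839 is a small molecule that binds Keap1 and activates Nrf2. Macrophages take up modified lipoproteins, bacteria and dying cells through scavenger receptors, which share broad ligand binding and not a common fold. They sense endotoxin with CD14, bind antibody-coated particles with Fc receptors, adhere through beta2 integrins and depend on the CSF1 receptor for survival.

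Promoters from the RefSeq promoter table (build GRCm38.p6) were used for 6 of the 10 genes, and those of the other 4 are not reported here. The 250 bases upstream of the start site are shown for the 5 of them whose RNA passed the test between genotypes in at least 1 treatment, namely Fcgr1, which was higher in KO cells, and Itgam, Cd36, Marco and Mrc1, which were lower. They lie at chr3:96293970-96294219 on the minus strand for Fcgr1, at chr7:128062390-128062639 on the plus strand for Itgam and at chr5:17835897-17836146 on the minus strand for Cd36. Those of Marco and Mrc1 lie at chr1:120505025-120505274 on the minus strand and at chr2:14229164-14229413 on the plus strand. Each is written 5′ to 3′ along its gene, and capitals mark a match to GAGGAA, the core that the macrophage factor PU.1 binds, or to its reverse complement.
Fcgr1: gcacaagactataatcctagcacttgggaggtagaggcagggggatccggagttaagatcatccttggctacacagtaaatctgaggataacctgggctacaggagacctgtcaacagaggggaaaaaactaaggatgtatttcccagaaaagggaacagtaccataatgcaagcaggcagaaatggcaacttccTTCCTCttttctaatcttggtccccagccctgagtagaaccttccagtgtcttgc
Itgam: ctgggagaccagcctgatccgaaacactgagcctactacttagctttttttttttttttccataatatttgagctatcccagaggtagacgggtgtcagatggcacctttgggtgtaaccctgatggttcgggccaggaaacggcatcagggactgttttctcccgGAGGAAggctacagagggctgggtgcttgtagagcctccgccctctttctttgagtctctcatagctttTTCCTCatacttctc
Cd36: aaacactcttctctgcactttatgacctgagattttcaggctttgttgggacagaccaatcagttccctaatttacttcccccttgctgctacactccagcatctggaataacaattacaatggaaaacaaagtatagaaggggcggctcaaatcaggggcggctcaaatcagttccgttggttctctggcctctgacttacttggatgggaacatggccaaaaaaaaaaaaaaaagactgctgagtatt
Marco: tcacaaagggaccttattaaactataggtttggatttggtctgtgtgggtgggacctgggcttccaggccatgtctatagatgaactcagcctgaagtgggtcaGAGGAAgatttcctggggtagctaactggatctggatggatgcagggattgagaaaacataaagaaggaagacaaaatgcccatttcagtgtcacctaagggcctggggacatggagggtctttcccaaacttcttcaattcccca
Mrc1: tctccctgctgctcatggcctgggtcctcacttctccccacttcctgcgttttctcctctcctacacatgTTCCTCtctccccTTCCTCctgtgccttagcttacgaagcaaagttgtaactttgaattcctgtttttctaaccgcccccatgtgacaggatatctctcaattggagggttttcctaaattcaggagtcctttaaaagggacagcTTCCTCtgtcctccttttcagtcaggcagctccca

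A search of both strands for 3 motifs covered a window of 300 bases, which adds the first 50 transcribed bases. GAGGAA was present in 5 of the 6 promoters, which is 83.3%, against 28.3% of the 32851 promoters in the table. The match in Fcgr1 lies 50 to 55 bases upstream of the start, and the match in Marco lies 141 to 146 bases upstream. Cd36 had no match (0). The core of the antioxidant response element, TGACNNNGC, was in 0 of the 6 windows, against 12.4% of all promoters. The AP-1 motif TGANTCA was in 1 of the 6, that of Cd68, against 7.81% of all promoters. TGANTCA and TGACNNNGC can overlap where both begin with the same letters. A match is a description of letters, and no binding was measured here.

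The values are log2 intensities after RMA, so a difference of 1 is a doubling, and they can be compared between arrays of 1 experiment for the same probe set. The labels were checked on the targeted genes. Nfe2l2 averaged 3.27 ± 0.08 in KO cells with RA839 and 3.40 ± 0.11 in KO cells with DMSO, against 12.3 ± 0.32 in WT cells with RA839 and 12.72 ± 0.20 in WT cells with DMSO (SD, n = 4 each). Keap1 averaged 9.06 ± 0.09 with siKeap1-1 and 9.26 ± 0.15 with siKeap1-2, against 11.09 ± 0.10 with siControl (SD, n = 4 each). WT array 2 with RA839 stood apart in RNA quality, with a Gapdh 3′ minus 5′ difference of 3.74 against 0.77 to 1.00 on the other 15 compound arrays. The values of RA839 in WT cells that this array moved are also given without it. All 11 macrophage markers measured were above the array's median probe set in every group. They include Adgre1, Csf1r, Cd68, Itgam, Cd14 and Fcgr1, which are receptor genes of this report. Of the 19 receptor probe sets, 17 were above the array's median probe set on all 28 arrays, Fcgr1 1436625_at was above it on 25 and Marco 1458297_s_at on 1.

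Loss of Nrf2 went with more Cd14 and Fcgr1 RNA and with less Itgam, Cd36 and Mrc1 RNA. In DMSO, 8 of the 19 receptor probe sets passed the test, 3 higher and 5 lower in KO cells, and they belong to 5 of the 10 genes. That is 42.1% of the receptor probe sets, against 21.3% of all 45037 probe sets tested (9.87% higher and 11.4% lower). Passing means an adjusted p under 0.05 in limma, with Benjamini-Hochberg adjustment over all probe sets. The median absolute log2 difference was 0.42 over the receptor probe sets and 0.21 over all probe sets. All probe sets include dim ones, while most receptor probe sets are bright. In bulk RNA such as this, fewer cells of a type and less RNA per cell cannot be told apart.

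Cd14 encodes the co-receptor that hands endotoxin to the TLR4 complex. It read 12.80, 12.77, 12.89 and 12.86 on the KO arrays with DMSO, against 10.89, 10.84, 10.98 and 11.29 on the WT arrays with DMSO. The lowest KO array lay well above the highest WT array, and the KO arrays were close to one another. The difference was 1.83 ± 0.14 on the log2 scale (SE), a 3.56-fold higher level in KO cells (limma adjusted p = 4.36e-07). With RA839 the arrays read 12.76, 12.92, 12.41 and 12.28 in KO cells, against 10.52, 10.44, 10.66 and 10.84 in WT cells, again without overlap. The difference there was 1.98 ± 0.14 (limma adjusted p = 7.95e-08).

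Fcgr1 encodes the high-affinity receptor for IgG, by which macrophages bind antibody-coated particles. Its leading probe set, 1417876_at, read 12.27, 12.42, 11.37 and 11.13 on the KO arrays with DMSO, against 9.49, 9.29, 10.61 and 9.87 on the WT arrays with DMSO. All KO arrays were above all WT arrays, but the spread inside each genotype was wide: KO arrays 1 and 2 lay above KO arrays 3 and 4, and among WT arrays the array numbered 3 was the highest. The difference was 1.98 ± 0.40, or 3.94-fold higher in KO cells (limma adjusted p = 0.00237). The second probe set, 1436625_at, gave 2.33 ± 0.39, or 5.04-fold (limma adjusted p = 0.000679). With RA839 the differences were 2.23 ± 0.40 and 2.35 ± 0.39 (limma adjusted p = 0.000769 and 0.000476).

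The plot of Fcgr1 and Marco by replicate number shows that same-numbered arrays of 1 genotype lay close together in both treatments. For Fcgr1 1417876_at the RA839 arrays of KO cells read 12.17, 12.34, 11.32 and 11, which repeats the order of the DMSO arrays. The summed linear level of 3 monocyte markers (Ccr2, F13a1 and Chil3) also varied among KO arrays, at 6371, 10914, 2246 and 9601 with DMSO, against 11957, 12702, 12488 and 13656 in WT cells with DMSO. All 4 KO arrays with DMSO were below all WT arrays with DMSO in that sum, and none of its 3 members (0) passed the test in DMSO. With RA839 the sum was 1937 to 11574 in KO cells and 11158 to 15358 in WT cells, so the genotypes overlapped. There 1 of the 3 markers was higher in KO cells and 0 lower by limma, against 13.3% of all probe sets higher. KO arrays 2 and 4 were the higher ones for the monocyte sum. The summed level of 6 dendritic cell markers (Flt3, Zbtb46, Dpp4, Ccr7, Xcr1 and Siglech) was 1365, 1418, 602 and 608 on the KO arrays with DMSO, against 650, 500, 1159 and 768 on the WT arrays with DMSO. KO arrays 1 and 2 and WT array 3 were the high ones of their genotype for this sum, as they were for Fcgr1 1417876_at. The 2 genotypes overlapped in it, none of the 6 markers (0) passed between them by limma, and Flt3 and Xcr1 were below the array's median probe set in both. Of 6 stromal markers, 3 were lower in KO cells with DMSO, against 11.4% of all probe sets. The sum of the 6 was 167 to 217 there, against 165 to 344 in WT cells with DMSO. Col1a1, Col1a2, Col3a1, Dcn and Pdgfra of this list were below the array's median probe set in both of these groups. The part of monocytes, dendritic cells or stromal cells in the receptor differences was not tested.

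**Figure D1:**
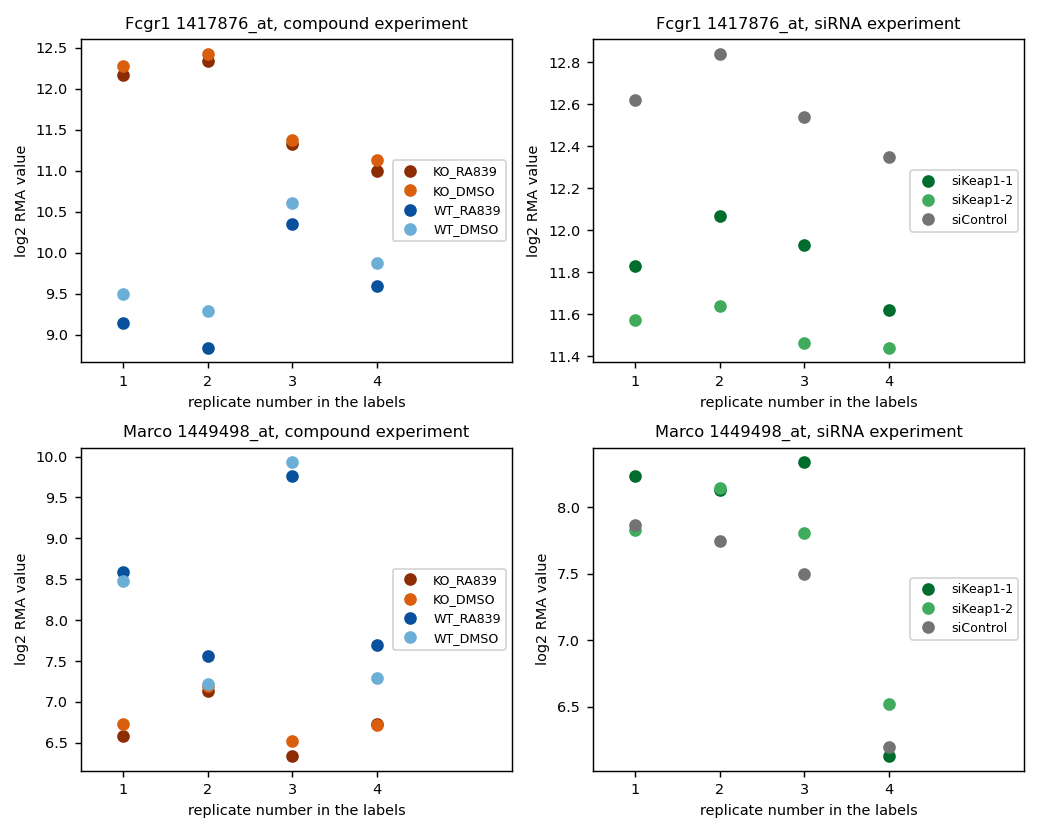
Log2 RMA values of Fcgr1 1417876_at (top) and Marco 1449498_at (bottom) by the replicate number in the labels, in the compound experiment (left) and the siRNA experiment (right). Each point is 1 array and colours are groups. KO arrays 1 and 2 read 12.17 to 12.42 for Fcgr1, and the siRNA arrays numbered 4 read 6.13 to 6.52 for Marco.

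Itgam encodes the alpha chain of the complement receptor and beta2 integrin known as Mac-1. It read 9.41, 9.34, 9.11 and 9.52 on the KO arrays with DMSO, against 10.25, 10.64, 10.30 and 10.36 on the WT arrays with DMSO. Every KO array was below every WT array, and the 2 sets of values were separated by more than the range within either. The difference was −1.04 ± 0.13, so that the KO level was lower by 2.06-fold (limma adjusted p = 7.01e-05). With RA839 the difference was −0.80 ± 0.13 (limma adjusted p = 0.000444), and it was −0.93 ± 0.11 without WT array 2, which read 9.73 while the other WT arrays with RA839 read 10.23 to 10.28. The summed level of 10 neutrophil markers was also lower in KO cells, at 7021 to 9519 with DMSO against 11431 to 12759 in WT cells with DMSO, and 3 of the 10 (S100a8, Ctsg and Ltf) were lower by limma, against 11.4% of all probe sets. Elane, Mpo, Ctsg and Prtn3, which define neutrophil precursors, were below the array's median probe set in all 7 groups, and the part of such cells in the Itgam difference was not tested.

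Cd36, a class B scavenger receptor for oxidised lipoproteins and fatty acids, was lower in KO cells by all 3 of its probe sets. The leading one, 1450883_a_at, read 12.39, 12.28, 12.17 and 12.33 on the KO arrays with DMSO, against 13.14, 13.21, 13.38 and 13.30 on the WT arrays with DMSO. The groups did not overlap. The differences of the 3 probe sets were −0.97 ± 0.10, −0.70 ± 0.09 and −0.95 ± 0.08, which are levels lower by 1.95-fold, 1.62-fold and 1.93-fold in KO cells (limma adjusted p = 6.39e-06, 0.000118 and 1.21e-06). With RA839 they were −0.98, −0.75 and −0.96, also without overlap.

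Mrc1, the mannose receptor, read 13.07, 13.22, 13.24 and 13.13 on the KO arrays with DMSO, against 13.63, 13.80, 13.54 and 13.38 on the WT arrays with DMSO. The highest KO array lay just below the lowest WT array. The difference was −0.42 ± 0.10, a level lower by 1.34-fold (limma adjusted p = 0.00679). With RA839 it was −0.48 ± 0.10 (limma adjusted p = 0.00224).

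Marco, a class A scavenger receptor that binds bacteria and particles, was the most variable of the 10 genes among WT arrays. Its leading probe set, 1449498_at, read 6.73, 7.19, 6.52 and 6.72 on the KO arrays with DMSO, against 8.48, 7.22, 9.93 and 7.29 on the WT arrays with DMSO. WT array 3 was far above the rest, and the highest KO array almost met the lowest WT array. The difference of −1.44 ± 0.52 did not pass the test (limma adjusted p = 0.0617). It passed without WT array 2 or 4 with DMSO (limma adjusted p = 0.0319 and 0.0393) and without WT array 3 with RA839 (0.0371). Without WT array 3 with DMSO, the high one, it was −0.87 ± 0.44 (limma adjusted p = 0.189). With RA839 the arrays read 6.58, 7.13, 6.34 and 6.73 in KO cells, against 8.59, 7.56, 9.76 and 7.69 in WT cells, and Marco fell by 1.71 ± 0.52 (limma adjusted p = 0.0251). Of 16 fits that left out 1 array, 4 lost that call, those without KO array 1 or 3 or WT array 1 or 3 with RA839 (limma adjusted p = 0.0541, 0.063, 0.0524 and 0.08), and the difference was −1.25 without WT array 3. The second Marco probe set, 1458297_s_at, was dim and gave −0.44 ± 0.28 and −0.59 ± 0.28, neither past the test.

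**Figure D2:**
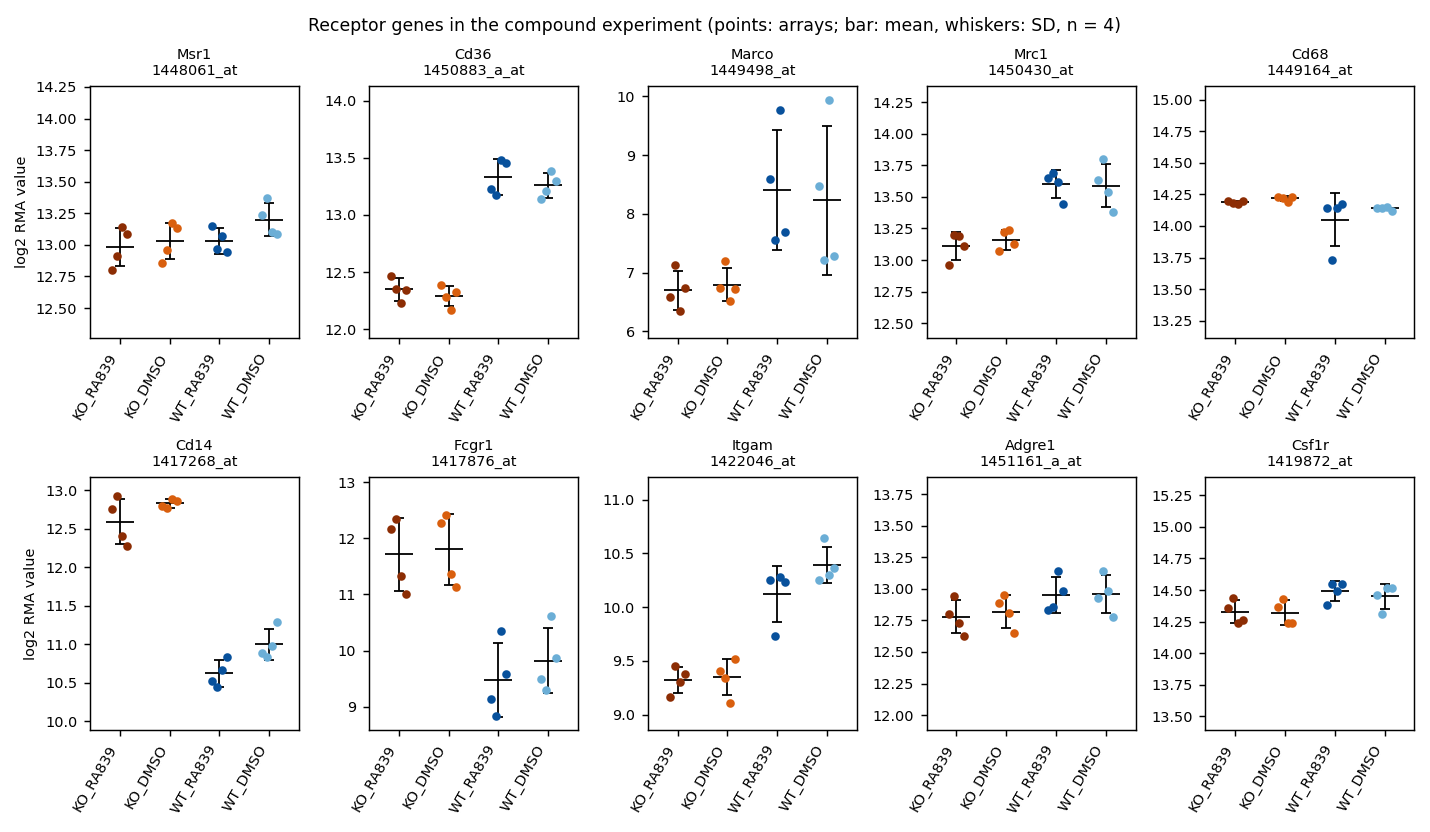
Log2 RMA values of the leading probe set of each of the 10 receptor genes in the 4 groups of the compound experiment, 1 panel per gene with its own axis. Points are arrays, the bar is the mean and whiskers are the SD (n = 4). KO arrays read 12.28 to 12.92 for Cd14 and WT arrays 10.44 to 11.29, while KO arrays read 12.17 to 12.47 for Cd36 and WT arrays 13.14 to 13.48.

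The remaining 4 genes did not pass the test between genotypes in either treatment. Msr1, the class A scavenger receptor whose loss lowers uptake of modified lipoproteins, gave differences in DMSO from −0.17 to 0.02 over its 4 probe sets. Csf1r, the receptor for the growth factor CSF1, gave −0.13, −0.05 and −0.06. Adgre1, an adhesion receptor that marks mouse tissue macrophages, gave −0.14 ± 0.11 with a 95% interval from −0.36 to 0.09. Cd68, a heavily glycosylated lysosomal protein used as a macrophage marker, read 14.19 to 14.23 in KO cells with DMSO and 14.12 to 14.15 in WT cells with DMSO. These Cd68 arrays did not overlap, but the difference of 0.08 ± 0.09 was not past the test (limma adjusted p = 0.581), and it was 0.08 ± 0.06 without WT array 2 with RA839. With RA839, 9 of the 19 receptor probe sets passed between genotypes, 3 higher and 6 lower in KO cells, against 26.3% of all probe sets (13.3% higher and 13% lower). In each treatment 10 of the 19 did not overlap between KO and WT arrays, against 26.7% of all probe sets in DMSO and 27.6% with RA839.

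Silencing Keap1 lowered Cd14, Fcgr1 and Msr1 RNA and raised Cd36 RNA. With siKeap1-1, 10 of the 19 receptor probe sets passed the test against siControl, 3 higher and 7 lower, in 4 of the 10 genes, against 9.55% of all probe sets (5.18% higher and 4.37% lower). With siKeap1-2, 8 of the 19 passed, 1 higher and 7 lower, in 5 of the 10 genes, against 6.78% of all probe sets (3.64% higher and 3.14% lower). Both comparisons use the same 4 siControl arrays, so they are not independent of each other. The shares of all probe sets include dim ones, while most receptor probe sets are bright. Among the brighter probe sets alone, 5429 passed with siKeap1-1 and 4137 with siKeap1-2. Those counts are above the 4301 and 3053 over all probe sets, although fewer were tested. The 11 macrophage markers include the receptor genes Adgre1, Csf1r, Cd68, Itgam, Cd14 and Fcgr1, so their sum is not separate from the receptor values. Their summed linear level was 102850 to 111992 with siKeap1-1 and 102710 to 109862 with siKeap1-2, against 116631 to 128074 with siControl. Of the 11, 2 were lower with siKeap1-1 and 4 with siKeap1-2 by limma, against 4.37% and 3.14% of all probe sets, and 0 were higher. The neutrophil sum was 17883 to 21558 with siKeap1-1 and 17145 to 23799 with siKeap1-2, against 13026 to 19171 with siControl. The sum of 6 dendritic cell markers was 948 to 1372 with siKeap1-1 and 1001 to 1603 with siKeap1-2, against 1184 to 2067 with siControl, and on every replicate number both siKeap1 arrays were below siControl. Of the 6, Flt3 and Ccr7 were lower with siKeap1-1 (2 of 6) and 0 with siKeap1-2 by limma. The sum of 3 monocyte markers was 5481 to 13978 with siKeap1-1 and 7321 to 12465 with siKeap1-2, against 8864 to 14692 with siControl. That of 7 osteoclast markers was 11872 to 13881 and 11878 to 14189, against 13479 to 15897. In these sums too, both siKeap1 arrays were below siControl on every replicate number. None of the 3 monocyte markers (0) passed. Of the 7, 1 was lower with siKeap1-1, and 1 lower and 1 higher with siKeap1-2. The sum of 5 megakaryocyte and platelet markers was 17706 to 18420 with siKeap1-1 and 17284 to 17973 with siKeap1-2, against 16087 to 16827 with siControl, without overlap. Of the 5, 1 passed with each siRNA, the platelet chemokine Ppbp, which was higher by 3.03 with both. The part of any of these sums in the receptor differences was not tested.

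Msr1 1448061_at, the leading probe set of that gene, read 13.31, 13.31, 13.21 and 13.26 with siKeap1-1 and 13.16, 13.11, 13.11 and 13.16 with siKeap1-2, against 13.68, 13.72, 13.69 and 13.71 with siControl. The 3 groups were tight and did not overlap. The differences from siControl were −0.43 ± 0.05 with siKeap1-1 and −0.57 ± 0.05 with siKeap1-2 (limma adjusted p = 0.000222 and 3.42e-05). The other 3 Msr1 probe sets fell more with siKeap1-1, by 0.79 for 1422062_at, 1.07 for 1425434_a_at and 0.97 for 1425435_at (limma adjusted p = 9.42e-05, 1.66e-05 and 6.8e-05). With siKeap1-2 their differences were −0.35, −0.47 and −0.23, of which the last did not pass the test (limma adjusted p = 0.205). With the replicate number as a block the last one passed (limma adjusted p = 0.0238). The call of 1422062_at with siKeap1-2 was lost in 6 of 12 fits that left out 1 array, those without siControl array 1, 2 or 3 or siKeap1-2 array 1, 2 or 4 (limma adjusted p from 0.0553 to 0.0772).

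The 2 siRNAs differed in their effect on Msr1. Set against siKeap1-2, siKeap1-1 gave lower values for 3 Msr1 probe sets, by 0.44 ± 0.08 for 1422062_at, 0.60 ± 0.09 for 1425434_a_at and 0.74 ± 0.10 for 1425435_at (limma adjusted p = 0.0102, 0.0025 and 0.00132). The leading probe set went the other way, at 0.14 ± 0.05, which did not pass the test (limma adjusted p = 0.182) although its arrays did not overlap. It passed with a trended, robust prior (limma adjusted p = 0.021) and among the brighter probe sets (0.0432). Without such settings the 3 calls are all the receptor probe sets that passed between the siRNAs, against 4.01% of all probe sets (2.18% lower). On the same array, 1448061_at exceeded 1425435_at by 2.93, 2.75, 2.84 and 3.02 with siKeap1-1 and by 1.97, 1.89, 1.91 and 2.25 with siKeap1-2, against 2.32, 2.29, 2.21 and 2.55 with siControl. The probe sets of this gene therefore changed unequally. Msr1 makes several transcripts, and which of them each probe set reads is not given in the files used here.

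**Figure D3:**
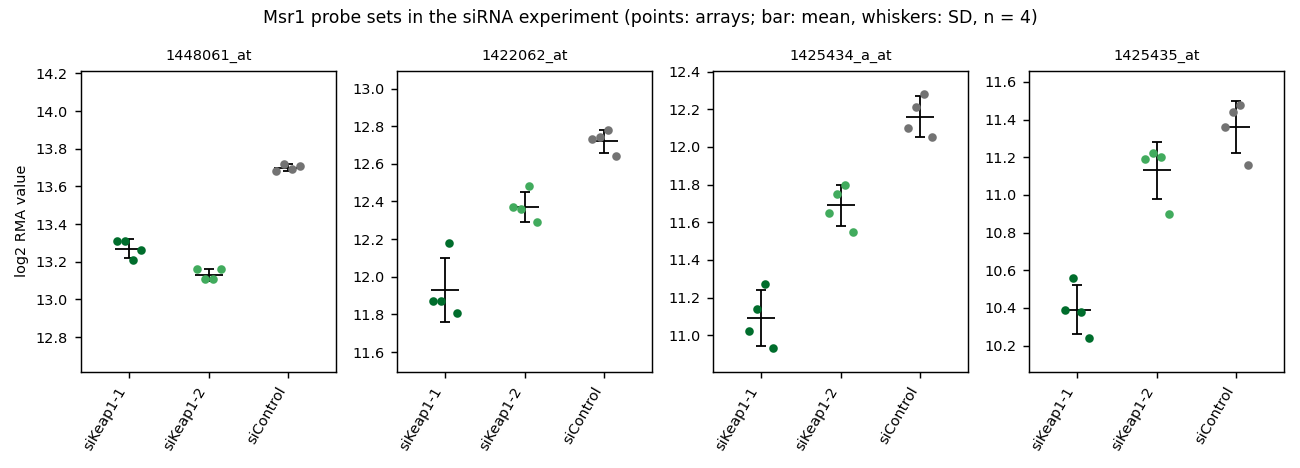
Log2 RMA values of the 4 Msr1 probe sets in the siRNA experiment, 1 panel each, with arrays as points, the mean as a bar and the SD as whiskers (n = 4). For 1448061_at both siKeap1 groups lie at 13.11 to 13.31, below siControl, while for 1425435_at siKeap1-1 reads 10.24 to 10.56 and siKeap1-2 reads 10.90 to 11.22, next to siControl at 11.16 to 11.48.

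Cd14 read 10.82, 10.80, 10.87 and 10.53 with siKeap1-1 and 10.65, 10.54, 10.38 and 10.14 with siKeap1-2, against 11.43, 11.45, 11.34 and 11.14 with siControl. Both siKeap1 groups were below all siControl arrays. The differences were −0.58 ± 0.12 and −0.91 ± 0.12, or levels lower by 1.5-fold with siKeap1-1 and 1.88-fold with siKeap1-2 (limma adjusted p = 0.00766 and 0.000531).

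Fcgr1 1417876_at read 11.83, 12.07, 11.93 and 11.62 with siKeap1-1 and 11.57, 11.64, 11.46 and 11.44 with siKeap1-2, against 12.62, 12.84, 12.54 and 12.35 with siControl. No siKeap1 array reached the lowest siControl array. The differences were −0.72 ± 0.11 and −1.06 ± 0.11 (limma adjusted p = 0.00152 and 0.000124), and those of 1436625_at were −0.69 ± 0.16 and −1.29 ± 0.16 (limma adjusted p = 0.019 and 0.000464). The call of 1436625_at with siKeap1-1 was lost in 2 of 12 fits that left out 1 array, those without siControl array 2 and without siKeap1-1 array 1 (limma adjusted p = 0.0605 and 0.0536). When all 28 arrays shared 1 estimate of the spread, the SE of 1417876_at grew to 0.32 and its adjusted p was 0.264 with siKeap1-1 and 0.0729 with siKeap1-2, while 1436625_at with siKeap1-1 had 0.314. Between the siRNAs, Cd14 and the 2 Fcgr1 probe sets differed by 0.33, 0.34 and 0.60, none past the test (limma adjusted p = 0.172, 0.137 and 0.064). The last passed without siKeap1-1 array 1 or siKeap1-2 array 4 (limma adjusted p = 0.0387 and 0.0187). With the replicate number as a block all 3 passed (limma adjusted p = 0.0137, 0.0133 and 0.0186), siKeap1-1 being the higher, and so did Csf1r 1423593_a_at (0.27, limma adjusted p = 0.0201).

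Cd36 1450883_a_at read 13.81, 13.83, 13.88 and 13.85 with siKeap1-1 and 13.86, 13.83, 13.84 and 13.88 with siKeap1-2, against 13.56, 13.50, 13.57 and 13.67 with siControl. All siKeap1 arrays were above all siControl arrays, by a small margin. The differences were 0.27 ± 0.05 and 0.28 ± 0.05, which are 1.20-fold and 1.21-fold higher levels (limma adjusted p = 0.008 and 0.00815). The other 2 Cd36 probe sets rose by 0.30 and 0.31 with siKeap1-1 (limma adjusted p = 0.0266 and 0.0317), and these calls were lost in 5 and 6 of 12 fits that left out 1 array. Both were lost without siControl array 1, 2 or 3 and without siKeap1-1 array 2 or 4, and 1423166_at also without siKeap1-1 array 3, at limma adjusted p from 0.0536 to 0.0968. With siKeap1-2 they gave 0.21 and 0.26, which did not pass the test, and passed with the replicate number as a block (limma adjusted p = 0.0231 and 0.0178). Without siControl array 4, the highest of its group, their adjusted p with siKeap1-2 was 0.0461 and 0.0142.

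Mrc1 fell by 0.25 ± 0.07 with siKeap1-2 (limma adjusted p = 0.0371), on arrays that read 13.19 to 13.35, against 13.42 to 13.62 with siControl. That call was lost in 8 of 12 fits that left out 1 array, those without siControl array 2, 3 or 4, any siKeap1-2 array or siKeap1-1 array 2 (limma adjusted p from 0.0512 to 0.111). With siKeap1-1 Mrc1 gave −0.17 ± 0.07 (limma adjusted p = 0.139). Adgre1 gave −0.17 ± 0.05 with siKeap1-1 and −0.15 ± 0.05 with siKeap1-2, where all siKeap1 arrays were below all siControl arrays but neither difference passed (limma adjusted p = 0.0606 and 0.128). The first passed with the replicate number as a block (limma adjusted p = 0.0427), with a trended, robust prior (0.00607), among the brighter probe sets (0.0125) and with 1 probe set per gene (0.0259). The second passed with the trended, robust prior (0.0205) and among the brighter probe sets (0.0326). Itgam, Marco, Cd68 and Csf1r did not pass with either siRNA. Marco read 8.24, 8.13, 8.34 and 6.13 with siKeap1-1, 7.83, 8.15, 7.81 and 6.52 with siKeap1-2, and 7.87, 7.75, 7.50 and 6.20 with siControl. The arrays numbered 4 were the lowest for Marco in all 3 groups, and the same arrays were the lowest for Itgam, at 10.49 with siKeap1-1, 10.32 with siKeap1-2 and 10.23 with siControl. In all, 11 receptor probe sets with siKeap1-1 and 9 with siKeap1-2 did not overlap siControl, against 15.7% and 16% of all probe sets.

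**Figure D4:**
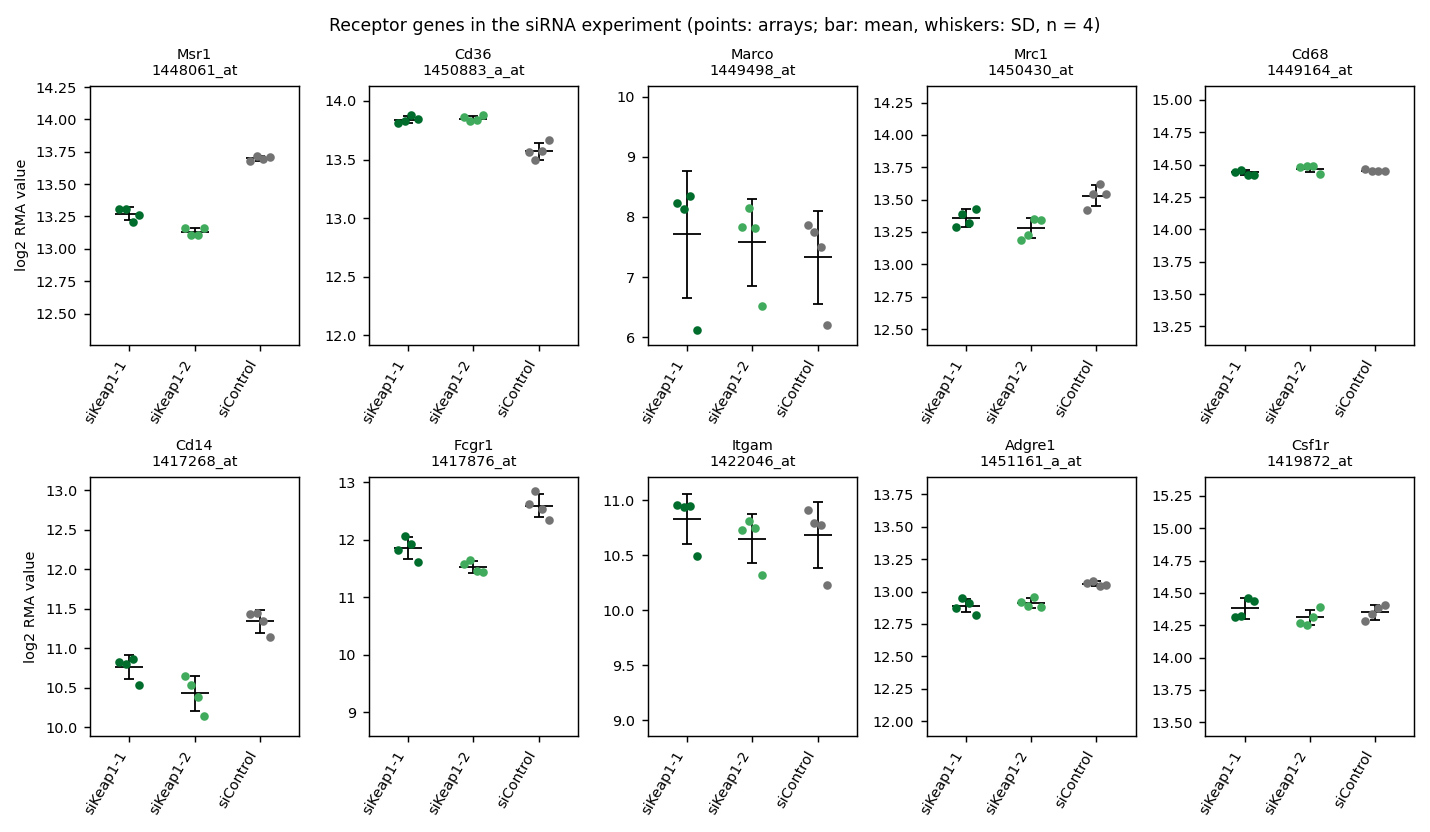
Log2 RMA values of the leading probe set of each receptor gene in the 3 groups of the siRNA experiment, with arrays as points, the mean as a bar and the SD as whiskers (n = 4). Each gene has its own axis. For Fcgr1, siKeap1-1 reads 11.62 to 12.07 and siKeap1-2 11.44 to 11.64, below siControl at 12.35 to 12.84.

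Cd14 and Fcgr1 were thus higher in KO cells and lower after either Keap1 siRNA, while Cd36 was lower in KO cells and higher after siKeap1-1 by all 3 probe sets. Mrc1 was lower in KO cells and lower after siKeap1-2. Msr1 gave its calls with the siRNAs, and Itgam and Marco gave theirs between genotypes. The 2 experiments share no arrays and were fitted apart, and no difference between them was tested.

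**Figure D5:**
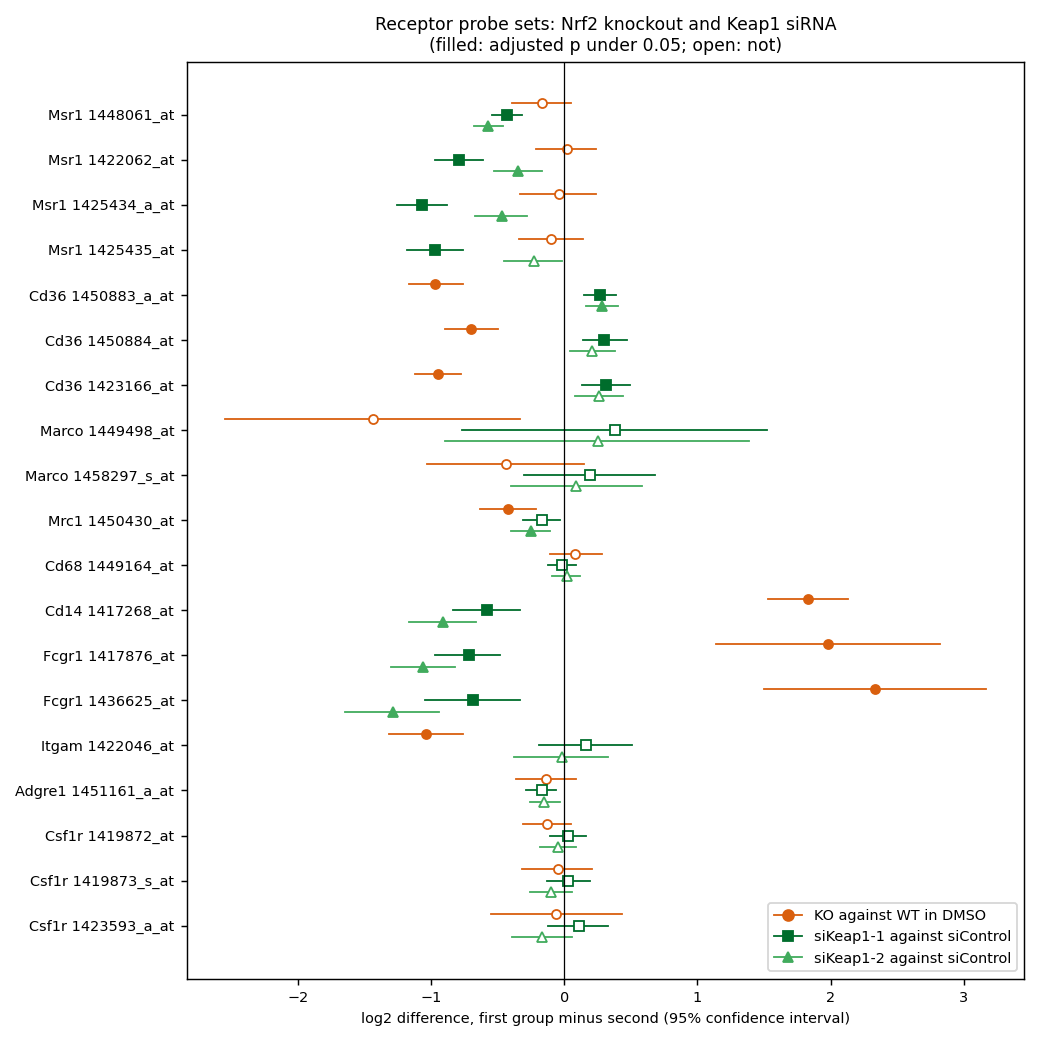
Log2 differences of the 19 receptor probe sets for KO against WT in DMSO, siKeap1-1 against siControl and siKeap1-2 against siControl, first group minus second, with 95% confidence intervals from limma. Filled symbols passed an adjusted p of 0.05. Cd14 lies at 1.83 in KO cells and at −0.58 and −0.91 with the siRNAs, and Cd36 1450883_a_at at −0.97 in KO cells and at 0.27 and 0.28.

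RA839 left the receptor genes without a call in the fit without a block. With the replicate number as a block, 1 receptor probe set passed in WT cells, Fcgr1 1417876_at, and 579 of all probe sets did. The counts that follow are without the block. In WT cells, 0 of the 19 receptor probe sets passed the limma test between RA839 and DMSO, against 0.344% of all probe sets (155 of 45037). In KO cells it was 0 of 19, against 0% of all probe sets. The test of the RA839 response in WT against that in KO cells passed for 0 of 19, against 0.0377% of all probe sets. At an unadjusted p under 0.05 limma gave 1 receptor probe set in WT cells, where 4265 of all probe sets passed that level, and 0 in KO cells, where 860 of all did. Without WT array 2 with RA839 these counts at an adjusted p of 0.05 were again 0, 0 and 0, and those between genotypes were 8 in DMSO and 9 with RA839. Nqo1, a classic Nrf2 target, rose by 0.63 ± 0.12 in WT cells with RA839 (limma adjusted p = 0.0316). In KO cells Nqo1 gave 0.39 ± 0.12, and the WT minus KO difference of its responses was 0.23 ± 0.17, neither past the test.

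The 1 receptor probe set at that level was Cd14, with a difference of −0.38 ± 0.14 in WT cells (limma unadjusted p = 0.0139, adjusted p = 0.382) and a 95% interval from −0.68 to −0.09. Its same-numbered WT arrays differed by −0.37, −0.40, −0.32 and −0.44. In KO cells the Cd14 difference was −0.24 ± 0.14, with same-numbered differences of −0.03, 0.14, −0.48 and −0.58. Without WT array 2 with RA839 the WT difference was −0.32 ± 0.15. Fcgr1 1417876_at gave −0.34 ± 0.40 in WT cells (limma adjusted p = 0.817), and −0.13 ± 0.42 without that array. Its same-numbered WT differences were −0.35, −0.45, −0.27 and −0.28, and with the replicate number as a block the difference was −0.34 ± 0.07 (limma adjusted p = 0.0498). In KO cells they were −0.10, −0.08, −0.05 and −0.12. The second Fcgr1 probe set gave −0.29 ± 0.20 with the block (limma adjusted p = 0.514).

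For the other 8 genes no difference between RA839 and DMSO reached an unadjusted p under 0.05 in limma without the block. Itgam gave −0.26 ± 0.13 in WT cells, and −0.13 ± 0.11 without WT array 2 with RA839. The 4 Msr1 probe sets gave −0.13 to −0.24 in WT cells, −0.07 to −0.19 there without that array, and −0.03 to −0.09 in KO cells. Cd36 gave 0.07 to 0.08 in WT cells, with the upper end of the 95% interval at 0.28 for the widest, and 0.10 to 0.13 without that array. Csf1r 1423593_a_at gave −0.19 ± 0.23 in WT cells and 0.06 ± 0.20 without that array, and Cd68 gave −0.09 ± 0.09 and 0.02 ± 0.06. Marco gave 0.17 ± 0.52, with a 95% interval from −0.94 to 1.28. It was 0.17 ± 0.10 with the replicate number as a block (limma adjusted p = 0.422) and 0.45 ± 0.56 without that array. Over all 19 probe sets the differences in WT cells ran from −0.38 to 0.17, and from −0.36 to 0.45 without that array, where none (0) passed the test.

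Genes that work with these receptors were read from lists by function, with 1 probe set, the brightest, for each gene. A share near that of all probe sets is no result about a list. All probe sets include dim ones, so their shares are not a like-for-like background. With 1 probe set per gene, 2741 passed for siKeap1-1, 2038 for siKeap1-2 and 4561 for KO against WT in DMSO, in either direction. The array table reads 18193 genes. Of 8 measured partners of CD14 in endotoxin sensing, 3 were higher and 0 lower in KO cells with DMSO, against 9.87% of all probe sets higher and 11.4% lower, with a median of 0.28 against 0 over all probe sets. These were the adaptor Tirap (0.58 ± 0.10), the endotoxin receptor Tlr4 (0.53 ± 0.13) and the adaptor Myd88 (0.34 ± 0.09). With siKeap1-1, 3 of the 8 were lower and 0 higher, against 4.37% of all probe sets lower, namely Tirap (−0.62 ± 0.07), Cd180 (−0.40 ± 0.07) and Tlr2 (−0.36 ± 0.08). With siKeap1-2, 4 of the 8 were lower and 0 higher, against 3.14% of all probe sets lower, and the median was −0.30 against 0.01 over all probe sets. They were Tlr2 (−0.85 ± 0.08), Cd180 (−0.49 ± 0.07), Ly86 (−0.39 ± 0.08) and Ly96 (−0.28 ± 0.07), where Ly96 encodes the endotoxin-binding subunit of the TLR4 complex.

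Of 8 other Fc receptor genes, 0 passed between genotypes in DMSO by limma, against 21.3% of all probe sets. With the siRNAs 1 of the 8 was lower for siKeap1-1 and 2 for siKeap1-2, against 4.37% and 3.14% of all probe sets, and Fcgr4, an activating IgG receptor, fell by 0.38 ± 0.09 with siKeap1-2 (limma adjusted p = 0.0262). Of 7 measured beta2 integrin genes and partners, 3 were lower and 0 higher in KO cells with DMSO, against 11.4% of all probe sets lower. These were the alpha chain Itgal (−0.80 ± 0.14), its ligand Icam1 (−0.74 ± 0.15) and the shared beta chain Itgb2 (−0.32 ± 0.08). Itgb2 pairs with Itgam on the cell surface, and its difference was the smallest of the 3. With siKeap1-1, 3 of these 7 were also lower and 0 higher, against 4.37% of all probe sets lower. They were Icam1 (−0.56 ± 0.12), the integrin partner Fermt3 (−0.44 ± 0.10) and Icam2 (−0.31 ± 0.08). With siKeap1-2, 1 of the 7 was lower and 0 higher, against 3.14% of all probe sets lower, namely Icam2 (−0.33 ± 0.08).

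Of 10 measured genes of lipid uptake and handling, 4 were lower and 0 higher in KO cells with DMSO, against 11.4% of all probe sets lower. They were the lipoprotein receptor Vldlr (−0.85 ± 0.23), the nuclear receptors Pparg (−0.79 ± 0.15) and Rxra (−0.55 ± 0.13), and the fatty acid binding protein Fabp5 (−0.28 ± 0.07). Pparg is known to drive Cd36 in macrophages. With siKeap1-1, 3 of the 10 were lower, against 4.37% of all probe sets. They were the cholesterol exporters Abca1 (−0.55 ± 0.11) and Abcg1 (−0.42 ± 0.06) and the lipid droplet protein Plin2 (−0.29 ± 0.07), and with siKeap1-2 none of the 10 (0) passed by limma. Cd36 itself was higher with siKeap1-1.

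Of 17 scavenger receptor genes outside the 10, 2 were lower and 0 higher in KO cells with DMSO, a share close to the 11.4% of all probe sets that were lower. Cd5l, a secreted scavenger receptor of macrophages, fell by 1.73 ± 0.50 there (limma adjusted p = 0.0209), and rose by 0.84 ± 0.24 with siKeap1-1 and by 0.94 ± 0.24 with siKeap1-2 (limma adjusted p = 0.0447 and 0.0331). With siKeap1-1, Cd5l was the 1 of the 17 that was higher and 2 were lower, against 5.18% and 4.37% of all probe sets. The lower ones were Scarb2, a lysosomal member of the CD36 family (−0.53 ± 0.06), and Cxcl16 (−0.41 ± 0.10). With siKeap1-2, Cd5l was again the 1 that was higher and 0 were lower, against 3.64% and 3.14% of all probe sets. Of 11 measured C-type lectin receptors, 2 were lower in KO cells with DMSO, against 11.4% of all probe sets. They were Clec4n (−1.05 ± 0.15) and Clec4d (−0.67 ± 0.08), which sense fungal and mycobacterial glycans. With siKeap1-1, 2 of the 11 were higher and 0 lower, against 5.18% of all probe sets higher. They were Clec10a (0.62 ± 0.17) and Clec4n (0.34 ± 0.07). With siKeap1-2, 0 of the 11 were higher and 1 lower, Clec5a (−0.68 ± 0.13), against 3.14% of all probe sets lower.

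Of 13 measured genes of the CSF1 receptor axis and of myeloid transcription factors, 2 were higher and 2 lower in KO cells with DMSO, against 9.87% and 11.4% of all probe sets. The transcription factors Runx1 (0.56 ± 0.10) and Irf8 (0.35 ± 0.09) were higher, and the ligand Csf1 (−1.13 ± 0.35 for its brightest probe set) and the receptor chain Csf2ra (−0.43 ± 0.08) were lower, beside a Csf1r that did not pass. Another Csf1 probe set gave −0.80 and did not pass (limma adjusted p = 0.114). Of 5 adhesion receptors related to Adgre1, 2 were lower in KO cells with DMSO, against 11.4% of all probe sets, the larger difference being that of Adgrg3 (−1.76 ± 0.24). With siKeap1-1, 0 of the 5 passed. With siKeap1-2, 2 of the 5 were lower and 1 higher, against 3.14% and 3.64% of all probe sets. The lower ones were Adgrg3 (−1.02 ± 0.17) and the dim Adgre4 (−0.95 ± 0.23, at 4.07 against 5.02), and Adgrl2 was higher (0.50 ± 0.08). Of 6 measured lysosomal genes listed beside Cd68, of the LAMP family and the cathepsins, 0 passed in DMSO between genotypes by limma, against 21.3% of all probe sets. With RA839 in WT cells no gene of these lists (0) passed by limma.

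The genes whose values followed each receptor most closely over the 16 compound arrays were looked for among 19194 brighter probe sets of named genes. These correlations are descriptions, since arrays of a genotype are alike and same-numbered arrays deviated together. Cd36 was closest to Slc11a1 and Procr (r = 0.99 each), whose log2 differences between KO and WT cells with DMSO were −2.31 and −2.20. Within the 8 KO arrays alone r was 0.08 for Slc11a1 and 0.64 for Procr. Fcgr1 was closest to Epas1 and Zfp36l1 (r = 0.98 each), and here the likeness held inside each genotype, with r of 0.98 and 0.93 over the 8 WT arrays and 0.98 and 0.99 over the 8 KO arrays. Msr1 1448061_at was closest to that second probe set of Csf1, the ligand of Csf1r, with r = 0.97 over all 16 arrays, 0.99 in WT and 0.98 in KO arrays. Cd14 was closest to Tnrc6c (r = 0.99), Itgam to Ndufa13 (r = 0.97), Marco to Ndrg4 (r = 0.96) and Mrc1 to Ndrg1 (r = 0.96). Over the 8 WT arrays these were 0.88, 0.86, 0.95 and 0.85, and over the 8 KO arrays 0.66, 0.60, 0.48 and 0.66. Adgre1, at r = 0.88 with Ppt1, had the weakest likeness of the 10. Cd68 was closest to Rps10 (r = 0.99), with r = 1 over the 8 WT arrays, which hold array 2 with RA839 at 13.73 beside 14.14 to 14.17 on the rest of its group, and r = 0.65 over the 8 KO arrays.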

How the data were processed

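The deposited log2 values, 1 for every probe set on every array, are RMA summaries per the submitters' processing notes, in which no version is stated; RMA compresses differences between dim probe sets. Array medians (5.61 to 5.71 with compound, 5.91 to 5.96 with siRNA) set the experiments apart, so each was fitted alone. The design text writes RA838 where the sample labels write RA839, and the labels were followed.

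After removal of 64 controls from 45101 probe sets, 8 two-sided comparisons were fitted with limma 3.58.1 under R 4.3.3, by group means and moderated variances, a procedure also tested on simulated data. Adjustment was by Benjamini-Hochberg over all 45037 probe sets, at 0.05. The 4 arrays of a group limit the precision, and p-values measure the spread between arrays, which the labels do not tie to separate mice.

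All probe sets naming 1 of the 10 genes are given, led by the one with the highest mean over all arrays. Up to 4 of the largest calls are named from each gene list, and the 2 genes of closest pattern were computed for each receptor. The members and lists were chosen with earlier results of these data known.

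Same-numbered arrays deviated from their group means together. The correlations over probe sets ran between 0.20 and 0.40 for WT, between 0.58 and 0.60 for KO and between 0.11 and 0.63 for siRNA arrays, but between −0.22 and −0.01 across genotypes. The number was therefore taken to pair arrays within a genotype and within the siRNA experiment, and the blocked value is printed where it changes a call. Other alternatives were another prior, array weights, 2 normalizations, filters, another threshold, other sets of arrays and leaving out each array in turn.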

Additional observations from a re-analysis of the deposited data

Results flagged for a closer look

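In 9 of 133 groups of 4 arrays, 1 array of a receptor probe set lay far from the other 3, with a gap to its neighbour above the 95% critical value of Dixon's test for 4 values (about 7 such groups would come by chance). WT array 2 with RA839, whose 3′ to 5′ control differences stood apart, read 9.73 for Itgam, against 10.23 to 10.28 on the other 3 arrays, and 13.73 for Cd68, against 14.14 to 14.17. In the siRNA experiment the arrays numbered 4 were low for Itgam, at 10.49 with siKeap1-1 against 10.94 to 10.96 and at 10.32 with siKeap1-2 against 10.73 to 10.81. Array 4 with siKeap1-1 was also low for Marco 1449498_at, at 6.13 against 8.13 to 8.34, and array 4 with siKeap1-2 for Msr1 1425435_at, at 10.9 against 11.19 to 11.22.

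Array 3 with siKeap1-1 was high for Msr1 1422062_at, at 12.18 against 11.81 to 11.87. Array 3 of the KO cells with RA839 was low for the dim Marco probe set 1458297_s_at, at 4.3 against 4.66 to 4.70. Cd68 on siControl array 1 read 14.47 against 14.45 on the other 3.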

How the results depend on the processing

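Over 3761 refits of single receptor probe sets, 3684 kept direction and side of the threshold, 45 lost a call, 32 gained one and 0 reversed, and 32 of 38 calls were kept in every fit that left out 1 array. Leaving out 1 array moved the count of receptor probe sets past the threshold to 8 to 9 for KO against WT in DMSO, 8 to 9 with RA839, 7 to 10 for siKeap1-1 and 6 to 9 for siKeap1-2 against siControl, 3 to 4 between the siRNAs, and 0 for RA839 in WT cells, RA839 in KO cells and the difference of these responses. Between siKeap1-1 and siKeap1-2, where 3 passed, 5 passed with a trended, robust prior and 5 among the brighter probe sets. With 1 probe set per gene (10 in place of 19) 5 passed for KO against WT in DMSO, 5 for siKeap1-1, 5 for siKeap1-2 and 0 between the siRNAs. With the replicate number as a block, 7 passed between the siRNAs and 1 (Fcgr1 1417876_at) for RA839 in WT cells, and the pairing changed no receptor call beyond those given in the report. With all 28 arrays in 1 fit, Mrc1 with siKeap1-2 was lost as well (limma adjusted p = 0.106), and with only the compared groups in the fit it was lost too (0.0555), as were Cd36 1450884_at and 1423166_at with siKeap1-1 (0.0682 and 0.0798). Array weights brought Marco 1449498_at in DMSO past the threshold (−1.58, limma adjusted p = 0.0244).

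Counts over all probe sets moved more. For RA839 in WT cells the 155 became 86 to 200 without 1 array and 579 with the block, and the 17 for the difference of responses became 3 to 40 and 61. For the siRNAs, 4301, 3053 and 1804 became 6982, 5674 and 3780 with the block, and at an adjusted p of 0.01 they were 2079, 1358 and 771. For KO against WT, 9592 in DMSO and 11864 with RA839 became 12629 and 15046 with all 28 arrays in 1 fit, 4791 and 6214 at an adjusted p of 0.01, and 4561 and 5538 with 1 probe set per gene, where fewer probe sets were tested. The cause of the other changes was not tested. No protein level or uptake was measured, and Marco 1458297_s_at lies near the floor of the arrays, where differences are compressed.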
